A study of Mus musculus with 2 samples.

Results

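The Rab GTPase genes described here were the protein-coding genes of chromosomes 1 to 19 whose symbol is Rab followed by a number and at most a letter or a pair of letters, such as Rab5a. The rule found 55 genes among 20560 autosomal protein-coding genes. It used names and positions alone, and no measured value. The data are a map of 5-hydroxymethylcytosine (5hmC) in mouse prospermatogonia, the germ cells of the foetal testis. The cells were wild type (WT), came from several embryos at E17.5, late in gestation, and were pooled to 30000, and 50 ng of their DNA was used. The series holds 1 library captured by 5hmC-Seal and 1 library of the same DNA before capture, both of batch 1. The captured library was available as a list of 108395 broad peaks, and the library before capture was not analysed here. The title of the series places these cells in a study of TET1 and of the DNA methylation that the male germline gains, but no mutant was among these samples. A pool of embryos counts as 1 library, so there was no replicate and no test across samples. Exact Clopper-Pearson 95% intervals beside shares cover counting error only, and neighbouring genes and peaks are not independent of each other. A peak list carries no expression values, so the labelled cell type could not be checked against marker genes.

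Rab proteins are small GTPases that give each membrane compartment of a cell its identity. They are switched on by exchange factors that load GTP and off by GTPase-activating proteins, and in the active state they recruit effectors such as tethers, motors and sorting proteins. A lipid tail, added by a prenyltransferase, holds them to membranes, and a dissociation inhibitor carries the inactive form through the cytosol. 5hmC is the product of TET enzymes acting on 5-methylcytosine, and in many tissues it lies within gene bodies while CG-rich promoters carry little of it. In 5hmC-Seal a tagged glucose is placed on 5hmC and the tagged fragments are captured, so that a peak marks a stretch with more captured DNA than the caller's background. Fold enrichment and −log10 q were taken as the authors' peak caller reported them.

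Promoter windows of 300 bases, from 250 bases before to 50 after an annotated start, were available for 44 of the 55 genes, from RefSeq on build GRCm38.p6, the same build as mm10. Of the 56 windows of these genes, 2 lay under a peak, and each belonged to an inner start of its gene, Rab15 or Rab43. The windows shown are those of these inner starts, the outermost starts of the same genes, and the starts of Rab5a and Rab5c, close relatives with 0 and 5 peaks. Capitals mark CG dinucleotides, the letters CG on either strand, where vertebrate cytosine methylation and hydroxymethylation mostly occur. All are written 5′ to 3′ along the gene's own strand.
Rab5a, chr17:53478984-53479283, plus strand, 30 CG, no peak: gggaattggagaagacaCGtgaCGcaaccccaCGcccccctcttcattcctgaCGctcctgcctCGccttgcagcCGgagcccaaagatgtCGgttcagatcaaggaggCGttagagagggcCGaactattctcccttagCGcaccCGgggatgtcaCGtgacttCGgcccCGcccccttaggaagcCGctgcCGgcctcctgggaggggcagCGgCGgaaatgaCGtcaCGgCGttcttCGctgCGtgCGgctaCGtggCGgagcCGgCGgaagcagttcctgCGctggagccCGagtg
Rab5c, chr11:100738166-100738465, minus strand, 23 CG, no peak: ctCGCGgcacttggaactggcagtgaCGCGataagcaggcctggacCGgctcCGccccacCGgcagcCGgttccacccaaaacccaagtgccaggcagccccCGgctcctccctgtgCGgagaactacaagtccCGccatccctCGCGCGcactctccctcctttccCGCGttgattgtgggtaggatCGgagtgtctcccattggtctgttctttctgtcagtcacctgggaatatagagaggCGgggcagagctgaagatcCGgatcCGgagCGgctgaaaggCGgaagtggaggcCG
Rab15 outermost start, chr12:76822475-76822774, minus strand, 38 CG, no peak: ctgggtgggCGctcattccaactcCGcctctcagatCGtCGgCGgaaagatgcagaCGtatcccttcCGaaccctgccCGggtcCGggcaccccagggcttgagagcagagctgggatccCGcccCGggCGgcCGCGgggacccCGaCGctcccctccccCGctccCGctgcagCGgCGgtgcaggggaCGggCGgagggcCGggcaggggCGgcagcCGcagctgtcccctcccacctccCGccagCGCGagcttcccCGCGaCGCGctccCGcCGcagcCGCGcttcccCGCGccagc
Rab15 inner start, chr12:76819047-76819346, minus strand, 8 CG, under a peak: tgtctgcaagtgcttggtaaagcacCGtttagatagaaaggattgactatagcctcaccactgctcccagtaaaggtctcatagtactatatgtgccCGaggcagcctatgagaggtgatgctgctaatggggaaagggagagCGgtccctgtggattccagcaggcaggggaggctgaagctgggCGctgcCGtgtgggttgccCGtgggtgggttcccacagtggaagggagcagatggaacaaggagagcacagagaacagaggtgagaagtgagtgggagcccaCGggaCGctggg
Rab43 outermost start, chr6:87812115-87812414, minus strand, 20 CG, no peak: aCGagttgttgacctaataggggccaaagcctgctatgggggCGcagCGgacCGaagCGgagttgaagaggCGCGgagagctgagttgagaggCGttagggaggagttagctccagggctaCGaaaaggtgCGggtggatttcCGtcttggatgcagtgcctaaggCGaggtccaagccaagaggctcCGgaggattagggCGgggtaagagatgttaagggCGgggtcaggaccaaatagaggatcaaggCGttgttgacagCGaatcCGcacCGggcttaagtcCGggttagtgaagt
Rab43 inner start, chr6:87809708-87810007, minus strand, 3 CG, under a peak: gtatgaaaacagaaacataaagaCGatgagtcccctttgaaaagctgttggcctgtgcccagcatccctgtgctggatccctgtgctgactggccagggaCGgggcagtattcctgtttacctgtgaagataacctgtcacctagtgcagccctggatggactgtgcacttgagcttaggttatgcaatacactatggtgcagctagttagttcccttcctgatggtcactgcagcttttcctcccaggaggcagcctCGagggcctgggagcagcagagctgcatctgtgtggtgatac
In the Rab15 inner window the peak, with a fold of 2.81, covered 224 bases, from base 1 to base 224 counted from the 5′ end, and 6 of its 8 CG. In the Rab43 inner window the peak, with a fold of 3.65, covered bases 81 to 300, which hold 2 of the 3 CG. Among the other windows of Rab15, the inner ones with 3 and 4 CG were not under a peak either.

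Over all Rab genes, promoters were CG-rich and mostly outside the peaks. The 56 windows held a median of 21 CG, from 3 to 45, against a median of 14 over 20085 windows of all autosomal coding genes. CG was found at least once in all 56 windows and in 95.6% of all windows, and 46 Rab windows (82.1%) held 10 or more against 57.9% of all. Peaks lay over 2 of 56 Rab windows (3.57%, interval 0.436 to 12.3%) and over 4.15% of all windows, so the Rab share was near the background. None of the 46 CG-rich Rab windows was under a peak, which allows a share of up to 7.71%, and over all genes 1.08% of such windows were. Below 10 CG, 2 of 10 Rab windows and 8.37% of all windows were under a peak. The windows under a peak thus came from the CG-poor class, with few windows behind the Rab count. Several windows were listed for 8 genes, and windows of 1 gene share their neighbourhood.

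**Figure D1:**
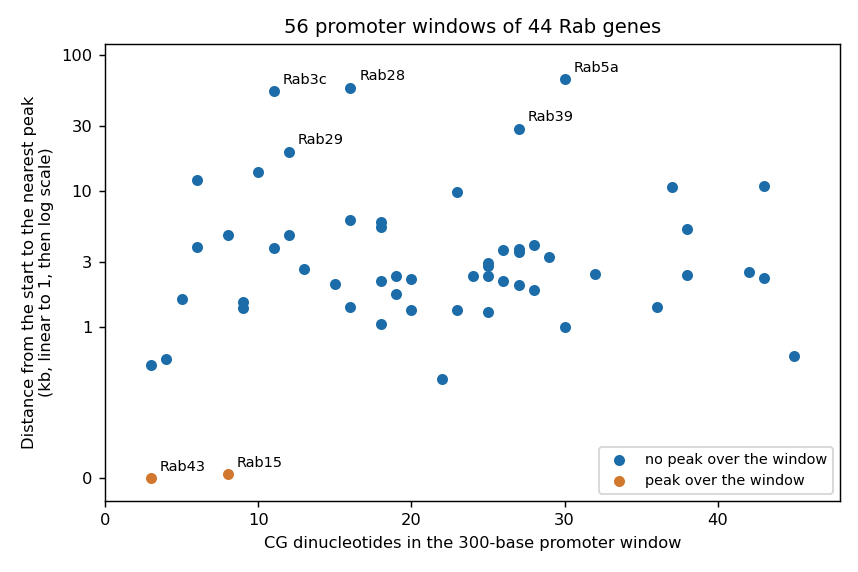
Number of CG dinucleotides in each of 56 promoter windows of 44 Rab genes (x axis) and distance from the annotated start to the nearest 5hmC peak in kb (y axis, linear up to 1 kb and logarithmic above). Points in orange are the inner windows of Rab43 and Rab15 under a peak, with 3 and 8 CG, and Rab5a is farthest from a peak, at 66.4 kb.

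The distance from a start to the nearest peak had a median of 2.42 kb over the 56 starts and a range from 0 to 66.4 kb. Rab5a, whose protein drives fusion of early endosomes, stood farthest at 66.4 kb. Rab28, linked to cilia of photoreceptors, followed at 57.4 kb and Rab3c, a GTPase of synaptic vesicles, at 53.7 kb. Both latter genes still carried peaks, deep in their long spans. The plot of CG number against distance shows these starts well above the bulk, and starts more than 10 kb from a peak held from 6 to 43 CG.

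Most Rab genes carried 5hmC within their spans. A peak overlapped the span with 1 kb on each side by at least 1 bp in 43 of 55 genes, or 78.2% (interval 65.0 to 88.2%), against 66.4% of all autosomal coding genes. The number of peaks per gene had a median of 2 and ran from 0 to 13, against a median of 1. Covered share of the span had a median of 5.82% against 2.76%. The highest fold per gene, taken over genes with a peak, had a median of 3.76, from 2.93 to 7.19, against 3.77 for all. The fold of the strongest peak was therefore near the background. An exact binomial 95% interval on the ranked genes gave 1 to 3 for the median number of peaks, which holds the median of all genes. For the median covered share it gave 3.12 to 8.30%, against the 2.76% of all genes. Both comparisons pool genes of all spans.

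Rab spans were longer, with a median of 24.8 kb against 17.6 kb, and the share of genes with a peak rose with span over all genes. In spans under 10 kb, 5 of 9 Rab genes (55.6%) had a peak against 37.3%. Between 10 and 30 kb the count was 21 of 27 (77.8%) against 73.5%. From 30 to 100 kb it was 14 of 15 (93.3%) against 87.1%. At 100 kb and over it was 3 of 4 against 95.8%, the exception being Rab27b. Within the classes up to 100 kb the Rab share lay above that of all genes, and each interval, such as 57.7 to 91.4% for 10 to 30 kb, held the share of all genes. The median covered share was 7.40% against 0% under 10 kb and 8.30% against 5.25% from 10 to 30 kb. It was 5.44% against 4.48% from 30 to 100 kb and 3.21% against 2.85% at 100 kb and over. The difference in covered share was thus small in the longer classes. Across the 55 genes the number of peaks and the span had a Spearman correlation of 0.48, against 0.68 over all genes, and the covered share and the span had -0.16 against 0.27. These are descriptions across genes of 1 library, which share its depth and the caller's settings.

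**Figure D2:**
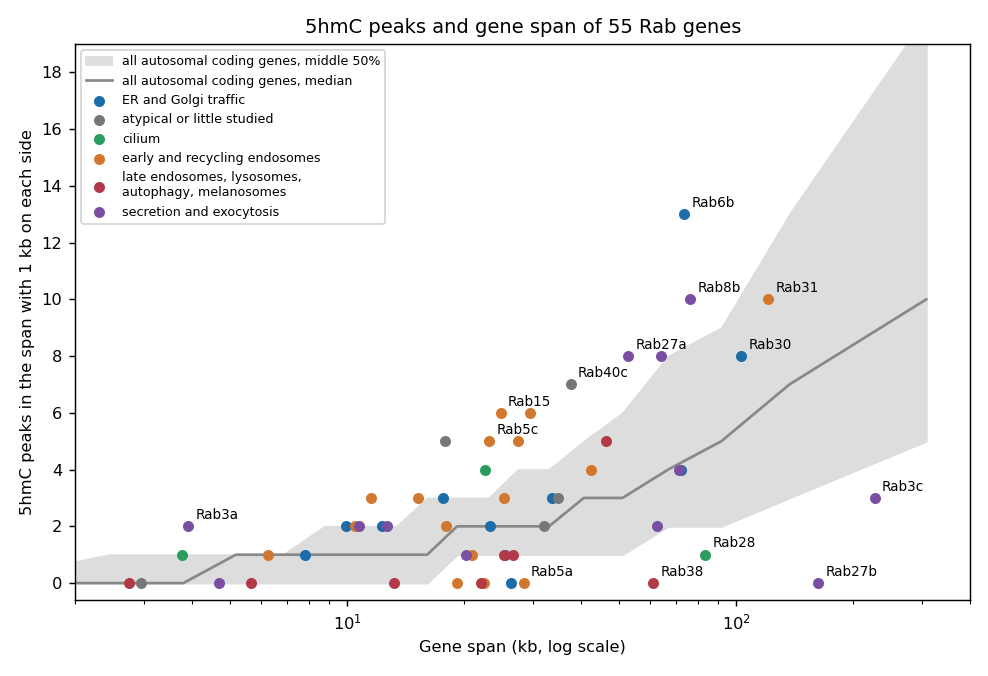
Number of 5hmC peaks in the span with 1 kb on each side (y axis) against gene span in kb (x axis, log scale) for 55 Rab genes coloured by role, with the median (line) and the middle 50% (grey band, clipped at the top) of all autosomal coding genes in classes of span. Rab6b stands highest with 13 peaks, and Rab27b, at 163 kb, has 0.

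The peaks behind these counts were mostly narrow and weak. The 55 genes held 162 peaks, of which 154 lay wholly inside the span, 4 crossed an end and 4 lay in the flank alone. Width had a median of 671.5 bp, from 226 to 3397 bp, against 659 bp for the 58283 peaks at all autosomal coding genes. Only 9 peaks (5.56%) were wider than 2 kb, against 8.01%. Median fold was 3.18 against 3.24. Peaks with a −log10 q of 3 or more numbered 17 (10.5%) against 14%, and those with 5 or more numbered 4 (2.47%) against 4.86%. Counted by gene, 14 of 55 Rab genes (25.5%) had a peak at a −log10 q of 3 or more against 24.6%, and 4 of 55 (7.27%) had one at 5 or more against 9.61%. Pooled over all spans, the Rab share was near that of all genes for both thresholds. Split by span, the shares for the lower threshold differed in both directions. From 30 to 100 kb, 10 of 15 Rab genes (66.7%) had a peak this strong against 37.1% of all genes. From 10 to 30 kb it was 2 of 27 (7.41%) against 19.3%, and under 10 kb 0 of 9 against 7.03%. For spans of 100 kb and over it was 2 of 4 against 67.6%. These Rab counts are small. None of the 162 peaks touched another protein-coding gene, and 12 (7.41%) overlapped a non-coding gene or pseudogene, so in these 12 the peak belongs to more than 1 annotated gene. The same shares were not taken over peaks at all coding genes, so whether these are unusual is unknown. Which peaks lie in exons, introns or untranslated regions was not analysed here.

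Gene ends, taken as 1 kb on each side of either end of the span, carried a peak in 15 of 55 genes (27.3%, interval 16.1 to 41.0%) against 27.9%, a share near the background. Rab11b, of the slow recycling pathway, and Rab2a, of the route between endoplasmic reticulum and Golgi, had the highest gene-end folds, 4.53 and 4.63, and in each that peak lay wholly outside the span. Rab22a, an early endosome GTPase, followed with a peak of fold 4.14 across its 3′ end, and Rab34, needed for cilium formation, with 4.08. The other 11 genes had gene-end folds from 2.77 to 3.76.

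By covered bases, peaks of the Rab genes were densest a few kb inside the 5′ end. Measured along the 44 genes with a known strand, the interval from 2 to 5 kb after the 5′ end of the span carried a peak in 24 genes, or 54.5% (interval 38.8 to 69.6%), against 29.7% of 14542 genes that reach it. Of the bases in that interval, 14.6% were covered against 8.35%. Nearer the start, from 0 to 1 kb, Rab17 alone of the 44 genes had coverage, against 6.02%, and from 1 to 2 kb 7 genes (15.9%) had it, against 12.4%. Farther in, covered bases were 8.06% against 8.08% from 5 to 10 kb, 7.97% against 7.33% from 10 to 20 kb, and 6.16% against 6.09% from 20 to 50 kb. The difference in covered bases was thus largest between 2 and 5 kb and small beyond 5 kb. The share of genes with coverage was 52.5% against 37.1% from 5 to 10 kb and 55.6% against 48.3% from 10 to 20 kb. From 20 to 50 kb it was 61.5% against 62.0%. By share of genes, the interval from 2 to 5 kb was thus not the highest among Rab genes, and the intervals widen with distance. These bins were chosen after the peaks had been placed, and the interval of 2 to 5 kb was chosen for its difference, so the shares are a description.

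**Figure D3:**
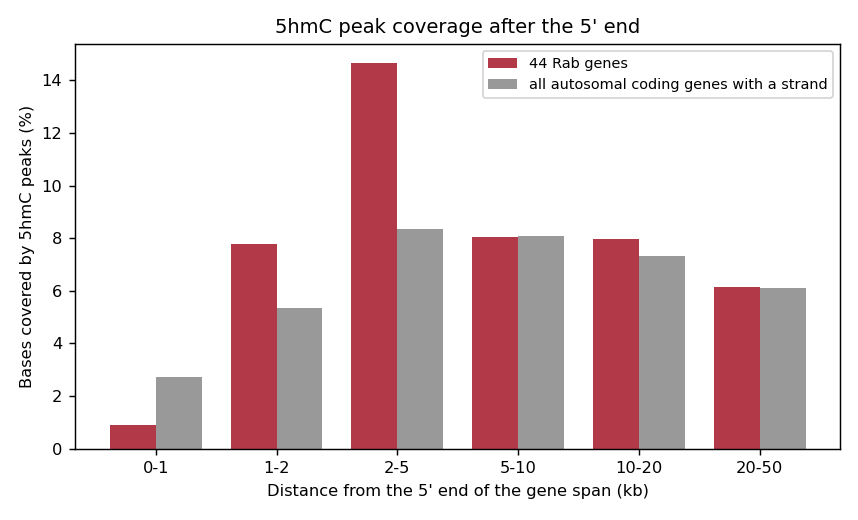
Share of bases covered by 5hmC peaks (y axis, %) in 6 intervals of distance from the 5′ end of the gene span (x axis, kb), for 44 Rab genes (red) and all autosomal coding genes with a known strand (grey). From 2 to 5 kb the bars stand at 14.6% and 8.35%, and beyond 5 kb they lie within 1 percentage point of each other.

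The genes with a peak from 2 to 5 kb came from most roles and included Rab1a, Rab2b, Rab6a, Rab6b, Rab33b and Rab43 of the endoplasmic reticulum and Golgi, and Rab4b, Rab5c, Rab11b, Rab14, Rab15, Rab20, Rab22a, Rab25, Rab31 and Rab35 of endosomes. In the secretory set they were Rab3a, Rab3b, Rab3d, Rab8b and Rab13, and Rab23, Rab34 and Rab40b completed the 24. Of the late endosome and lysosome set, 6 genes had a known strand and 0 of these 6 had such a peak, too few to set them apart from the 29.7% of all genes. Limited to spans of 10 to 100 kb, the count was 20 of 34 (58.8%) against 30.5%. Limited to genes with 10 or more CG in the outermost promoter window, it was 22 of 39 (56.4%, interval 39.6 to 72.2%) against 35.6%. Under both limits at once it was 19 of 32 (59.4%) against 35.6%. The share of all genes was higher among those with CG-rich promoters. These limits were added after the data were seen, on an interval chosen for its difference, and the part of span and CG content in it was not tested. With stronger peaks alone the counts became small, at 3 of 44 (6.82%) against 4.42% for a −log10 q of 3 and 0 of 44, which allows up to 8.04%, against 1.07% for 5.

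**Figure D4:**
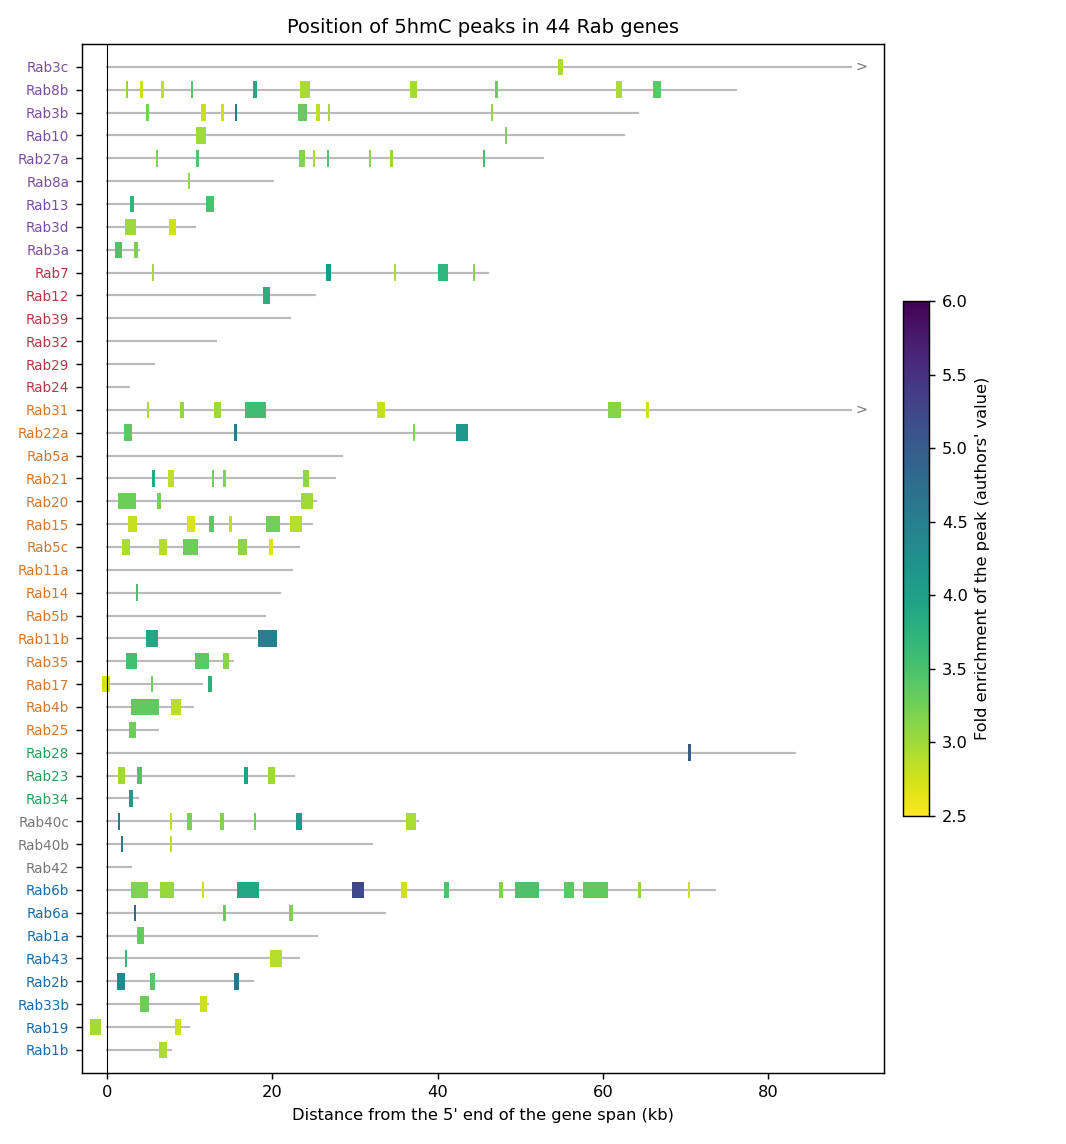
Position of each 5hmC peak along 44 Rab genes with a known strand, as distance from the 5′ end of the span in kb (x axis); grey lines are gene spans, boxes are peaks drawn to their width and coloured by fold, names are coloured by role, and the far ends of Rab3c and Rab31 (marked >) are cut off. Rab6b carries 13 peaks from near its start to near its end, Rab27a carries 8 narrow ones, and Rab5a, Rab5b and Rab11a carry none.

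Among GTPases of the endoplasmic reticulum and Golgi, 10 of 11 genes had a peak (90.9%, interval 58.7 to 99.8%), with a median covered share of 7.40%. The interval holds the 66.4% of all genes. Rab6b, a form of the Golgi GTPase Rab6 found mainly in brain, had 13 peaks, the most of the 55 genes, over a span of 73.6 kb (chr9:103111667-103185276). They covered 24.3% of it, and 4 of them were wider than 2 kb. Its strongest peak, at chr9:103141382-103142812, had a fold of 5.24. Rab6a, the broadly expressed form, had 3 peaks in 33.7 kb and a covered share of 3.12%, with a highest fold of 4.83. The pair thus differed in number and breadth of peaks more than in peak fold.

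Rab2a held the strongest peak of the family. It lay at chr4:8579269-8580746, inside the gene, with a fold of 7.19 and a −log10 q of 9.67. Folds at least as high occurred in 2726 autosomal peaks, or 2.57%. Rab2a had 4 peaks in all and Rab2b 3, with a highest fold of 4.67 in Rab2b. Rab1a and Rab1b, which act in transport from the endoplasmic reticulum to the Golgi, had 1 peak each, of fold 3.34 and 2.93. Rab30, a Golgi GTPase, had 8 peaks in 103 kb with folds from 2.73 to 3.74. Rab33b, which binds the autophagy protein Atg16l1, had 2 peaks that covered 16.6% of its 12.3 kb, and Rab43 had 2 peaks covering 7.46%. Rab19 had 1 peak inside its span, covering 7.40%, and 1 in the flank. The exception was Rab18, of lipid droplets and the endoplasmic reticulum, with 0 peaks in 26.4 kb and the nearest peak 1.29 kb from its span.

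Of the early and recycling endosome genes, 13 of 16 had a peak (81.2%, interval 54.4 to 96.0%, against 66.4% of all genes) and the median covered share was 8.81%. Rab4b, of the rapid recycling route, had the largest covered share of all 55 genes, 44.2% of 10.5 kb. It came from 2 peaks, 3397 and 1223 bp wide, of fold 3.35 and 2.88. Over all genes, 399 (1.94%) were covered as much or more. Rab4a, its close relative, had 6 peaks over 29.4 kb and a covered share of 12.3%. Broad and weak coverage also marked Rab35, which acts in recycling and cytokinesis, with 24.8% covered by 3 peaks of fold 3.12 to 3.54. Rab15, which acts in recycling from early endosomes, had 24.6% covered by 6 peaks of fold 2.71 to 3.41. Rab20 had 16.4% covered by 3 peaks, the widest of 2210 bp. Rab31, a relative of Rab22a, had 10 peaks over 121 kb with a highest fold of 4.39 and a covered share of 7.62%. Rab21, which is known for integrin traffic, had 5 peaks over 27.6 kb and a highest fold of 3.86.

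The Rab5 and Rab11 subfamilies were split. Rab5c had 5 peaks of fold 2.70 to 3.28 that covered 22.1% of its 23.2 kb. Rab5a and Rab5b had 0 peaks in spans of 28.4 and 19.1 kb. All 3 proteins are known to act on early endosomes. The surroundings differed, with 118 other peaks in the 1 Mb around Rab5c, 83 around Rab5b and 28 around Rab5a, and the nearest peak was 2.05 kb from Rab5b and 37.9 kb from Rab5a. Rab11b had 2 peaks, of fold 4.53 and 3.90, and Rab11a, which marks the recycling endosome, had 0 in 22.5 kb with the nearest peak 6.11 kb away. Around Rab11b there were 57 other peaks in 1 Mb and around Rab11a 61. The part of the surroundings in these differences was not tested. Rab25, an epithelial relative of Rab11, had 1 peak of fold 3.28, and Rab14 had 1 of fold 3.54.

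The genes of late endosomes, lysosomes, autophagy and melanosomes had the smallest share with a peak among the 6 roles. Of these 8 genes 3 had a peak (37.5%, interval 8.52 to 75.5%), the median covered share was 0%, and none had a gene-end peak. The interval is wide and holds the 66.4% of all genes. It also holds the 73.5% of genes with spans of 10 to 30 kb, where the median span of this role, 23.7 kb, falls. Roles were assigned with earlier results of these data known, so their order is a description. Rab7, which directs late endosomes to lysosomes, had 5 peaks over 46.2 kb with a highest fold of 4.12. Rab7b and Rab12, which also act on routes to and from late endosomes, had 1 peak each, of fold 3.04 and 3.78. Rab24, tied to autophagy, Rab29, known for recruiting the kinase Lrrk2, Rab32 and Rab38, which deliver pigment enzymes to melanosomes, and Rab39 had 0. Their spans ran from 2.76 kb for Rab24 to 61.3 kb for Rab38. The nearest peak lay 1.51 kb from Rab24, 11.0 kb from Rab39, 13.8 kb from Rab32, 18.2 kb from Rab38 and 19.4 kb from Rab29. In the 1 Mb around Rab38 there were 12 other peaks and around Rab32 18, against a median of 74 over the 55 genes, so these lay in stretches with few peaks. There were 32 around Rab39 and 65 around Rab29, and Rab24, with 91, did not lie in such a stretch. Few surrounding peaks were also found at genes with peaks, such as Rab30, with 11 other peaks and 8 of its own.

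Secretion and exocytosis genes had a peak in 10 of 12 cases (83.3%, interval 51.6 to 97.9%) and a median covered share of 4.31%. Over all genes the share was 66.4%, and it was 87.1% for spans of 30 to 100 kb, where the median span of this role, 57.7 kb, falls. All 4 Rab3 genes, which control the release of synaptic and secretory vesicles, had peaks. Rab3a had 2 peaks covering 34.0% of its 3.91 kb. Rab3d, known from exocrine glands, had 2 covering 20.5% of 10.7 kb. Rab3b had 8 peaks over 64.3 kb with a highest fold of 4.56 and 6.07% covered. Rab3c had 3 peaks over 227 kb, 0.781% covered, and the second highest fold of the family, 5.68 at chr13:110085325-110086197, about 195 kb from the 5′ end. Short members were thus densely covered by weak peaks, and the longest member was sparsely covered with a strong one.

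Rab27a and Rab27b, which dock secretory granules and melanosomes at the plasma membrane, were split, and the longer gene was the one without a peak. Rab27a had 8 peaks over 52.8 kb, all narrower than 1 kb, with folds from 2.95 to 3.56. Rab27b had 0 over 163 kb. Of the 1239 autosomal coding genes at least as long as Rab27b, 42 (3.39%) had no peak. The nearest peak to Rab27b was 11.3 kb from its span, and there were 36 other peaks in the 1 Mb around it against 61 around Rab27a. Rab8b, which acts in transport to the plasma membrane, had 10 peaks over 76.1 kb and Rab8a had 1 over 20.2 kb. Rab37, of secretory granules, had a peak of fold 5.29 among its 4. Rab13, known from tight junctions, had 2 peaks, and Rab10, which brings glucose transporters to the cell surface, had 2 over 62.5 kb. Rab26, of secretory granules, had 0 over 4.69 kb, with the nearest peak 14.2 kb away.

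All 3 cilium genes had a peak (interval 29.2 to 100%, against 66.4% of all genes). Rab23, a negative regulator of Hedgehog signalling, had 4 peaks covering 12.4%, Rab34 had 1 covering 11.8% of 3.77 kb, and Rab28 had 1 narrow peak of fold 5.02 in 83.2 kb. Among the 5 atypical or little studied genes 4 had a peak (80.0%, interval 28.4 to 99.5%, against the same 66.4%). Rab36 had 5 peaks covering 24.5% of 17.9 kb. Rab40c and Rab40b, whose proteins carry a SOCS box and join ubiquitin ligases, had 7 and 2 peaks, with nearly equal highest folds of 4.57 and 4.55. That strongest peak began 1.41 kb after the 5′ end in Rab40c and 1.76 kb after it in Rab40b. Rab44, a large Rab with EF-hands, had 3 peaks covering 7.46%, and Rab42 had 0 in 2.95 kb with the nearest peak 9.14 kb away.

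**Figure D5:**
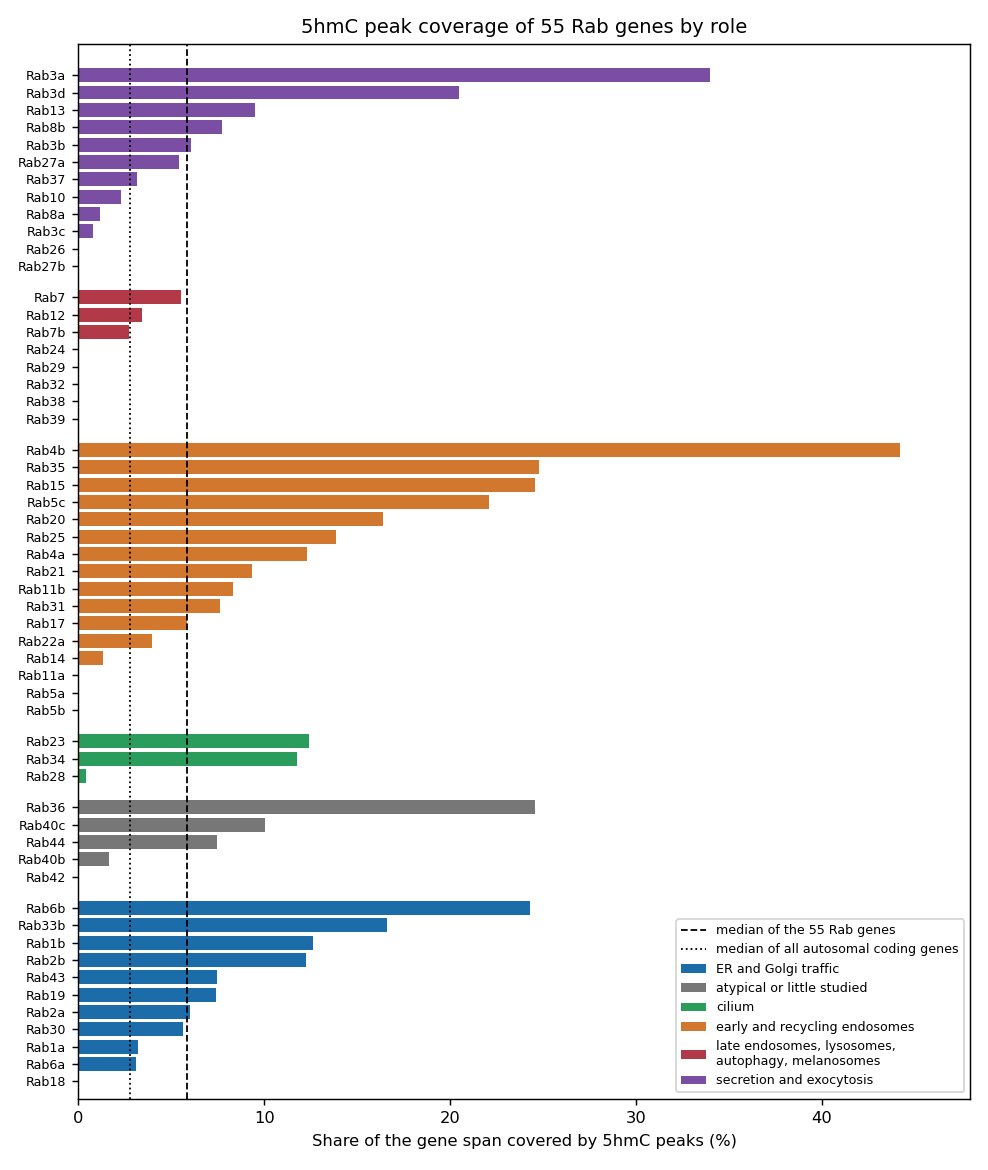
Share of the gene span covered by 5hmC peaks (x axis, %) for each of 55 Rab genes, grouped and coloured by role, with the median of the Rab genes (5.82%, dashed) and of all autosomal coding genes (2.76%, dotted). Rab4b reaches 44.2%, and in the late endosome set no gene passes the Rab median.

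A covered share of 20% or more was found in 8 genes (14.5%), against 11.4% of all genes, and these were Rab4b, Rab3a, Rab35, Rab15, Rab36, Rab6b, Rab5c and Rab3d. At 10% or more the count was 17 (30.9%) against 25.7%. The bars of covered share by role show these genes spread over 4 of the 6 roles. Of these 8 genes Rab6b alone had a peak fold above 5, and the other 7 had highest folds from 3.02 to 3.75. Among the remaining Rab genes, folds above 5 were found in Rab2a, Rab3c, Rab37 and Rab28 alone. The share of all genes with such a fold was not taken, so whether these counts are unusual is unknown. These few genes cannot show whether wide coverage and high folds go apart.

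The 12 genes without a peak were Rab5a, Rab5b, Rab11a, Rab18, Rab24, Rab26, Rab27b, Rab29, Rab32, Rab38, Rab39 and Rab42. Their median span was 20.6 kb, against 25.3 kb for the 43 with a peak. In the 1 Mb around each, other peaks had a median of 57, from 12 to 91, against 78, from 11 to 140, around the genes with a peak, and these ranges overlapped over most of their length. Over the 55 genes the number of peaks of a gene and of its surroundings had a Spearman correlation of 0.21, a description of points that share chromosomes and 1 library. Of the 11 subfamilies with several members, 8 had a peak in every member and 3, Rab5, Rab11 and Rab27, were split.

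The partners of the Rab cycle carried peaks in most cases, beside 66.4% of all autosomal coding genes. Their median spans were 68.1 kb for GTPase-activating proteins, 60.1 kb for exchange factors, 49.5 kb for effectors and 6.26 kb for prenylation and membrane cycling. Thus 3 of these 4 lists held longer genes than the Rab list. Those 3 medians fall between 30 and 100 kb, where 87.1% of all genes had a peak, with a median of 3 peaks. Under 10 kb, where the prenylation median falls, 37.3% of all genes had a peak. Of the GTPase-activating proteins, 34 of 34 had a peak, with a median of 6.5 peaks. Rab3gap1, the catalytic subunit of the Rab3 activating complex, had the highest fold of that list, 8.28, and Rabgap1 had 7.25. Of the exchange factors, 30 of 32 had a peak. Rin2, an exchange factor for Rab5, reached 6.84 and Ric1, which acts on Rab6, 6.05, while Dennd2d and Gapvd1 had 0. Effectors had a peak in 29 of 30 genes, led by Rims2, a Rab3 effector of the presynaptic active zone, with 9.09, and Fyco1, a Rab7 effector, with 6.61. Rab11fip2 was the effector with 0. In the prenylation and membrane cycling set 4 of 6 genes had a peak, with folds of 3.89 in Gdi2, a dissociation inhibitor, and 3.67 in Rabggta, a subunit of the prenyltransferase, whose span was 52.8% covered. Rabggtb, the other subunit of that enzyme, and Chml had 0. The median covered share was 9.94% in the activating proteins, 6.26% in the exchange factors, 2.74% in the effectors and 15.2% in the prenylation set, beside 5.82% in the Rab genes. The prenylation median rests on 6 genes with covered shares from 0 to 52.8%.

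For other membrane-traffic families the same values were taken. The 29 sorting nexin genes had a peak in 26 cases (89.7%), against 66.4% of all genes and 87.1% of those with spans of 30 to 100 kb, where their median span of 44.6 kb falls. Their median covered share was 5.75%, and 17 (58.6%) had a gene-end peak against 27.9% of all genes. The 25 Arf and Arl GTPase genes had a peak in 18 cases (72.0%, beside the same 66.4%), a median covered share of 3.26% and a gene-end peak in 7 (28.0%), over a median span of 9.44 kb. Rab genes lay between them in share with a peak and in span, and close to the Arf and Arl genes in gene-end peaks. The Rab median covered share, 5.82%, was nearly that of the sorting nexins. Its interval of 3.12 to 8.30% holds the medians of both other families.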

How the data were processed

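5hmC-Seal was applied to pooled wild-type prospermatogonia, with 1 captured library and 1 library before capture. Members, roles, gene lists and tests were chosen with earlier results of these data known. Per the submitters' processing notes, the tools included MACS2 2.1.0, Bowtie2 2.5.0, deepTools 3.5.1, Trim Galore, bedtools 2.27.1 and SAMtools 1.16.1, on mm10. What each did, with which settings, and whether the library before capture served as control was not given in the sources used here. Each peak in the authors' deposited broad peak list has a fold enrichment, a ratio over the caller's background, together with a −log10 p and a −log10 q. The deposited score was not used. The lowest deposited −log10 q was 1.01, so weak calls are included. The list holds no read counts, so depth is unknown and no error of a fold can be given.

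Gene spans came from a RefSeq table of GRCm38.p6, the same build, which gives no exons. Genes starting in the opening 3 Mb of a chromosome were left out. Strand and promoter windows came from a RefSeq promoter table, which has no entry for Rab2a, Rab4a, Rab7b, Rab18, Rab26, Rab27b, Rab30, Rab36, Rab37, Rab38 and Rab44. Rab3ip and Rab5if match the symbol pattern but are partner proteins, and were left out. All listed partner genes were found, St5 as a synonym of Denn2b. Overlaps of at least 1 bp were counted with Python 3.11.15, pandas 2.3.3, numpy 2.4.6 and scipy 1.17.1, and the counting was tested on simulated data and against bedtools. Genes to be named were every member without a peak, the 10 with most peaks, highest fold or largest covered share, members with a peak over a promoter window, the Rab3, Rab5, Rab11, Rab27 and Rab40 subfamilies, and the 2 partner genes of each list with the highest fold. Other genes were named after their values were seen. Distance bins, the limit of 10 CG and the covered share of 20% were chosen after the files had been read. The alternatives were stricter peak thresholds, other windows, midpoints, merged peaks and other member sets.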

Additional observations from a re-analysis of the deposited data

How the results depend on the processing

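No paired analysis was possible because the captured library alone was analysed, with no replicate. The threshold on peaks moved every summary. At a −log10 q of 3 and of 5, Rab genes with a peak fell to 25.5% and 7.27%, those with a gene-end peak to 3.64% and 0%, the median number of peaks to 0 and 0, the median covered share to 0% and 0%, and those with a peak 2 to 5 kb after the 5′ end to 6.82% and 0%, while the median highest fold became 4.62 and 5.49. Over all genes the gene-end share became 4.18% and 1.31%, the median covered share 0% and 0%, and the median highest fold 4.81 and 6.23. Gene-end peaks moved with the window, to 12.7% at 250 bp and 72.7% at 5 kb. A wider window takes in more peaks at any gene. The share of all genes at these windows was not taken, so these values do not set Rab genes apart. Counting peaks by their midpoint, merging peaks within 1 kb and putting back Rab3ip and Rab5if left all 5 planned summaries within the counting interval of the main value. Parts of these checks could not move. The covered share was taken from whole peaks under midpoint counting as well. Merging cannot leave a gene without its peak, so the share of genes with a peak could not fall. Leaving out peaks shared with another coding gene removed none of the 162 peaks, so it says nothing on stability. For the interval from 2 to 5 kb, the alternatives were chosen after seeing the data. Measured from the outermost promoter start the share was 59.1% against 30.8% of all genes. The limits on span and CG number kept most of the same 44 genes, so Rab shares within the interval say little on stability. The CG limit raised the share of all genes from 29.7% to 35.6%. The unknown depth limits all counts of 0, since a gene without a called peak may still carry 5hmC under the caller's threshold.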

Other observations

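The X chromosome holds 4 further Rab genes, which the rule on autosomes leaves out. Rab9, which returns receptors from late endosomes to the Golgi, Rab9b, Rab33a and Rab39b had 0 peaks each, in spans from 6.19 to 22.6 kb. Among 963 protein-coding genes of the X chromosome 189 (19.6%) had a peak, against 66.4% of autosomal genes, and 0 of 4 allows a share of up to 60.2%.

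Rab3ip, also called Rabin8, an exchange factor for Rab8, had 8 peaks that covered 39.1% of its 44.7 kb, with a highest fold of 3.80. Rab8b, whose protein it activates, had 10 peaks and 7.71% covered, and Rab8a had 1 peak and 1.18% covered. Rab5if, the other partner with a Rab-like symbol, had 2 peaks and 2.55% covered.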
